A study of Mus musculus with 15 samples.

Results

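The genes followed are 10 members of the MHC class I antigen presentation pathway and the immunoproteasome, measured in peripheral whole blood of mice: the classical heavy chains H2-K1 and H2-D1, the light chain B2m, the peptide transporter and loading genes Tap1, Tap2 and Tapbp, the class I transactivator Nlrc5, and the inducible proteasome subunits Psmb8, Psmb9 and Psmb10. They were taken by gene symbol, by a rule that uses no measured value, though earlier results of these data were known. All 10 of 10 were found among the 55416 gene identifiers counted. Blood RNA was sequenced from 15 C57BL/6 mice (female by the study's methods) in 3 groups of 5, each library being the cheek bleed of 1 mouse. The labels give all 15 the same origin, wild-type animals with 4MOSC1 cells, a mouse oral squamous carcinoma line, placed in the tongue and grown for 10 days. The early group received anti-CTLA-4, an antibody that blocks the T cell checkpoint CTLA-4, with early neck dissection (ND), which removes the tumor-draining lymph nodes of the neck. The late group received anti-CTLA-4 with late ND, and the untreated group had neither drug nor surgery. The study's descriptions of when blood was drawn do not settle whether late ND had been done by then, so "late" below is the label of the group. No group received anti-CTLA-4 without an assigned surgery, and drug and surgery cannot be told apart in the comparisons with untreated mice.

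MHC class I molecules show short peptides from inside the cell to CD8 T cells and to receptors of natural killer (NK) cells. Proteasomes cut cytosolic proteins, the TAP1-TAP2 transporter carries the peptides into the endoplasmic reticulum, and tapasin (Tapbp) holds empty heavy chain and β2-microglobulin (B2m) at the transporter until a peptide binds. Interferon-γ replaces the constitutive proteasome subunits Psmb5, Psmb6 and Psmb7 with Psmb8, Psmb9 and Psmb10, and leukocytes carry this immunoproteasome at rest. NLRC5 drives transcription of class I genes, and most nucleated blood cells express the pathway.

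On GRCm39, 7 of the 10 genes lie in the MHC of chromosome 17: H2-K1 (chr17:34214987-34219321, minus strand), Tap1 (chr17:34405996-34416199, plus), Psmb9 (chr17:34400960-34406738, minus), Psmb8 (chr17:34416690-34420428, plus), Tap2 (chr17:34422501-34435829, plus), Tapbp (chr17:34134873-34148267, plus) and H2-D1 (chr17:35481691-35486475, plus). B2m lies at chr2:121977957-121983594 (plus), Psmb10 at chr8:106662362-106665077 (minus) and Nlrc5 at chr8:95160984-95253900 (plus). Promoters are shown for 5 members, 4 because they match a pattern of NF-κB or interferon response sites and Tap1 because its promoter is shared with Psmb9. A match to a pattern shows no function, and a site that departs from the pattern is missed. Each is the 300-base RefSeq window (250 bases before to 50 after the start, taken from a GRCm38.p6 table) at its single exact match on GRCm39, written 5′ to 3′ in the direction of the gene. Capitals mark matches to the NF-κB consensus, to an interferon-stimulated response element core (GAAANNGAAA) and to a γ-activated sequence (TTCNNNGAA).
H2-K1 promoter, chr17:34219272-34219571, - strand: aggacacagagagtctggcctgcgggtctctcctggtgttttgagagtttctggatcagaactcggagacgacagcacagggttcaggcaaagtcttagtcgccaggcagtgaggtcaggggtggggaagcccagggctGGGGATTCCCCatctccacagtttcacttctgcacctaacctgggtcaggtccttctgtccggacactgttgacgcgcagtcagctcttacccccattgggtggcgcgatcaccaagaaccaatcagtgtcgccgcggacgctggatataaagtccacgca
H2-D1 promoter, chr17:35481820-35482119, + strand: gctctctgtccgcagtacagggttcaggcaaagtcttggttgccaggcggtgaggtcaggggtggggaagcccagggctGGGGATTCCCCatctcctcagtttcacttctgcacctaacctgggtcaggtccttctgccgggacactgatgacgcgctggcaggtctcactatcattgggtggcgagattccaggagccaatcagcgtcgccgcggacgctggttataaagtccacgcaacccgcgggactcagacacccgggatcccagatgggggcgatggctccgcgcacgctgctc
B2m promoter, chr2:121977918-121978217, + strand: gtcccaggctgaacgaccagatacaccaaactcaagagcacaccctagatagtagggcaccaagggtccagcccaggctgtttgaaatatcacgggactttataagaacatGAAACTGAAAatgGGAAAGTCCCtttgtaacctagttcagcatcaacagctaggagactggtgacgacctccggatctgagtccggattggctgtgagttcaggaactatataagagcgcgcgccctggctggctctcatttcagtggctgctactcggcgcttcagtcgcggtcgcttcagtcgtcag
Tap1 promoter, chr17:34406280-34406579, + strand: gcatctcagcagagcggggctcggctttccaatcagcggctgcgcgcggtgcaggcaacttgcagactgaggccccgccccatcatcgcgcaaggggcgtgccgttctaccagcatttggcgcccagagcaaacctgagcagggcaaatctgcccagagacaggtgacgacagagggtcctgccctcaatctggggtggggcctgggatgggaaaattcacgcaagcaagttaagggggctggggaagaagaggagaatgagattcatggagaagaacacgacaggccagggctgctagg
Psmb8 promoter, chr17:34416919-34417218, + strand: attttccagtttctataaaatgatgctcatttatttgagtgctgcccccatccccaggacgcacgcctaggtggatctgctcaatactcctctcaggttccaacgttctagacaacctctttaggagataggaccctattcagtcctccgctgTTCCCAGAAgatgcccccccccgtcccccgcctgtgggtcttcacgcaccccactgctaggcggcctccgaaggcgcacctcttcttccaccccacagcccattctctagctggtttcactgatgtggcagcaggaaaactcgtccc
H2-K1 and H2-D1 held the same NF-κB site, H2-K1 on the minus and H2-D1 on the plus strand of chromosome 17. B2m held a response element core followed by a different NF-κB match, Psmb8 held 1 γ-activated sequence, and the Tap1 window matched none of the 3. RefSeq windows were found for 8 of the 10 members, all but Tap2 and Nlrc5. Searched on both strands, the NF-κB consensus was present in 3 of 8 (8.18% of 27025 promoters of the same length), the response element core in 1 of 8 (3.49%), and the γ-activated sequence in 1 of 8 (8.47%). The CCAAT-box core ATTGG was present in 6 of 8 (37.92%) and the CRE motif TGACG in 5 of 8 (21.02%). H2-K1 and H2-D1 each matched the NF-κB consensus in 2 overlapping frames of 1 site. Tap1 and Psmb9 stand head to head, and their promoter windows overlap. Their CCAAT-box and CRE matches are the same bases, counted once for each gene. The counts of members are thus not counts of independent sites, and the shares of all promoters are no test of enrichment.

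The heavy chains are paralogs, and their counts depend on how reads are told apart. Over the aligned coding sequences they were 88.26% identical, with a longest identical run of 91 bases, which is shorter than 1 read of a pair. A 90-base coding stretch rich in differences is printed with the 17 mismatched positions in capitals.
H2-K1 coding bases 480 to 569: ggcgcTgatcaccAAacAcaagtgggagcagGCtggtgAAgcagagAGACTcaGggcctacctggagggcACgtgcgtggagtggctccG
H2-D1 coding bases 489 to 578: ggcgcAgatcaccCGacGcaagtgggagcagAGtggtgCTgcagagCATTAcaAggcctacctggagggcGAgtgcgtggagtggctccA
Of the 150-base windows of the H2-K1 transcript 8.78% occurred, on either strand, in a transcript of another gene, in H2-D1 16.72%, in Psmb9 30.4% and in Tapbp 16.79%. For Psmb9 that gene is Tap1, whose exons cover 19.55% of Psmb9 exon bases on the other strand. The genes that shared most with H2-K1 and H2-D1 in shorter windows were Gm53999 and 5430410E06Rik, annotated on their other strand. Neither is among the genes counted here, so these shares do not measure exchange between the heavy chains. Reads from windows shared with a counted gene cannot be assigned with certainty. Over exons with a counted partner on the other strand the assignment also turns on the strand setting, which is not given in the sources used here. B2m, Psmb10 and Nlrc5 shared no such window.

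Libraries differed in depth and in red cell content. Gene counts per library ran from 5862888 to 10796099 in untreated, 5527108 to 7182346 in early and 7849602 to 13924361 in late mice, and hemoglobin genes took 31.6% to 61.7%, 38.3% to 64.1% and 14.9% to 29.3% of them. Marker genes of red cells, neutrophils, monocytes, T, B, NK and dendritic cells and platelets were all detected in each group, none at 0, as the label of blood requires. The 3 libraries that stood apart (untreated replicate 2, late replicates 2 and 3) held under 1000 CPM of the 18S ribosomal gene Rn18s-rs5 where the other 12 held at least 13402, and results are given with and without them where they change. Levels below are TMM-scaled counts relative to library size (CPM), a scaling that gives little weight to the few genes, such as hemoglobins, that differ most between libraries. In whole blood, fewer cells of a type and less RNA per cell cannot be told apart.

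No member passed the test between late and early ND. Log2 fold changes, late against early, ran from -0.29 (Nlrc5) to 0.24 (H2-D1) with a median of -0.09, against 0.01 over all genes tested, and 4 of 10 were above 0, as were 51.8% of all genes. By edgeR's quasi-likelihood test 0 of 10 were called higher or lower at an adjusted p of 0.05 (adjusted p 0.384 to 0.805), where 2.5% of the 13315 genes tested were called higher and 2.48% lower. At an unadjusted p of 0.05 the count of members was also 0, against 14.4% of all genes higher and 9.33% lower. DESeq2 called 0 members (5.78% of all genes higher, 5.03% lower), with 1 member, H2-D1, under an unadjusted 0.05. In 0 of 10 members did the groups separate without overlap (2.98% of all genes higher, 2.93% lower). The 95% intervals lay within 1.5-fold in either direction for 9 of 10 members, and the widest reached down to 0.594-fold for Nlrc5. Without the 18S-poor libraries 0 of 10 members were called in any of the 3 comparisons, in fits that called 4 genes of all higher and 0 lower in late against early.

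No member passed the test against untreated blood either. For late ND the log2 fold changes ran from -0.11 (B2m) to 0.16 (Tapbp), with 0 of 10 called in either direction by edgeR (adjusted p 0.545 to 0.985), where 0.989% of 13547 genes were called higher and 2.01% lower. All 10 intervals lay within 1.5-fold. For early ND the log2 fold changes ran from -0.10 (H2-D1) to 0.29 (Nlrc5), with 0 of 10 called by edgeR (adjusted p 0.938 to 0.997), where 0% of 12151 genes were called higher and 0% lower. At an unadjusted p of 0.05 edgeR gave 0 members in both, against 8.69% of all genes higher and 8.28% lower in late and 2.11% and 2.33% in early mice. DESeq2 also called 0 members in both. Of all genes it called 272 higher and 538 lower of 13547 in late mice, and 0 and 0 of 12151 in early mice. Of the 10 members 5 were above 0 in late mice (50.4% of all genes) and 8 in early mice (49.6%). The groups overlapped for all 10 members in both comparisons, where 2.5% of genes were higher and 2.98% lower without overlap in late and 0.346% and 0.23% in early mice. The 3 comparisons share groups, each group serving in 2 of them, and are not independent. Scaling by library totals instead of TMM moved the median of all genes, late against early, to 0.86 on the log2 scale and the median of members to 0.79, -0.07 relative to it, and 9 of 10 members were then called higher in late against early and 9 in late against untreated, where 67% and 55.2% of all genes were called higher.

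**Figure D1:**
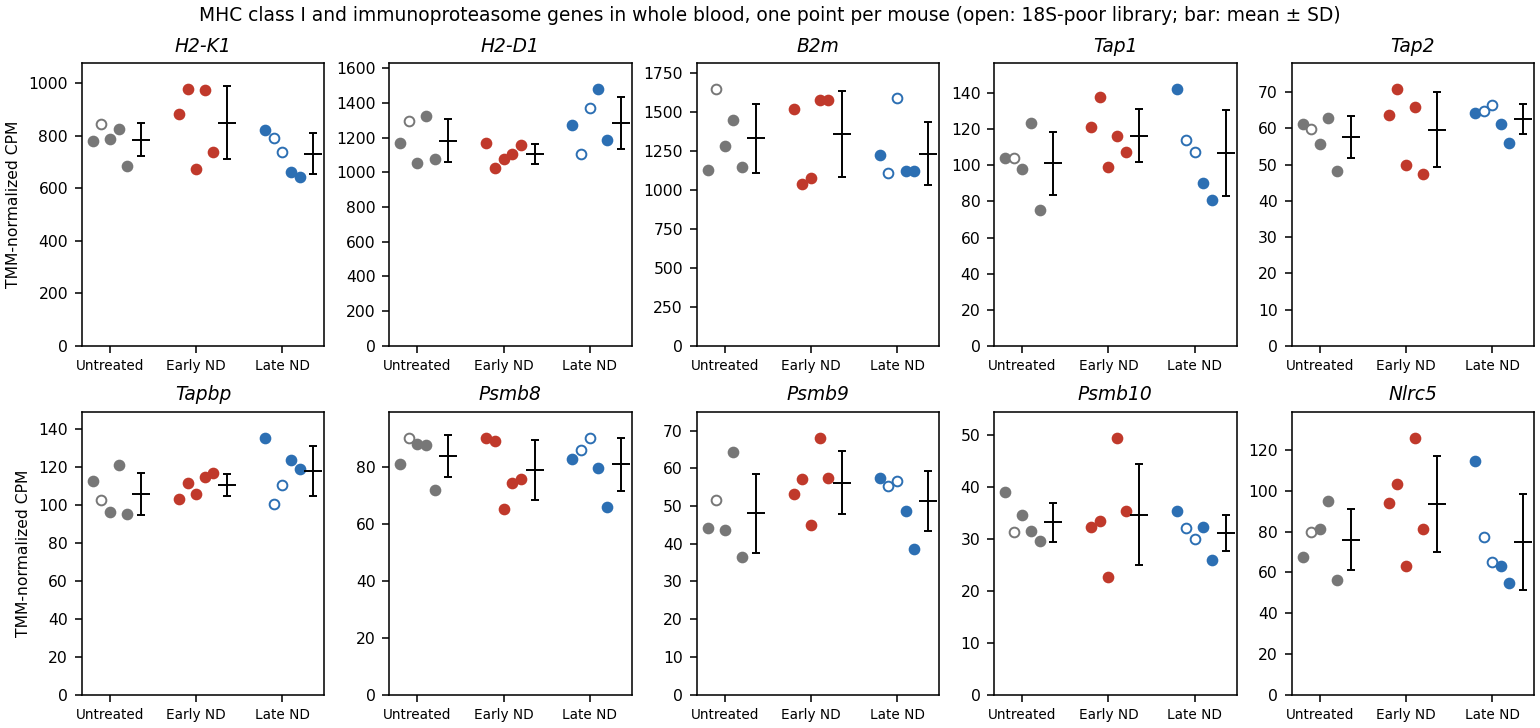
TMM-normalized CPM (y axis, from 0) of the 10 members by group (x axis), 1 point per mouse, open points being the 3 libraries poor in 18S and bars the mean ± SD of 5 mice. The groups overlap in every panel; H2-K1 is spread from 673 to 978 CPM in early mice and H2-D1 from 1025 to 1171.

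**Figure D2:**
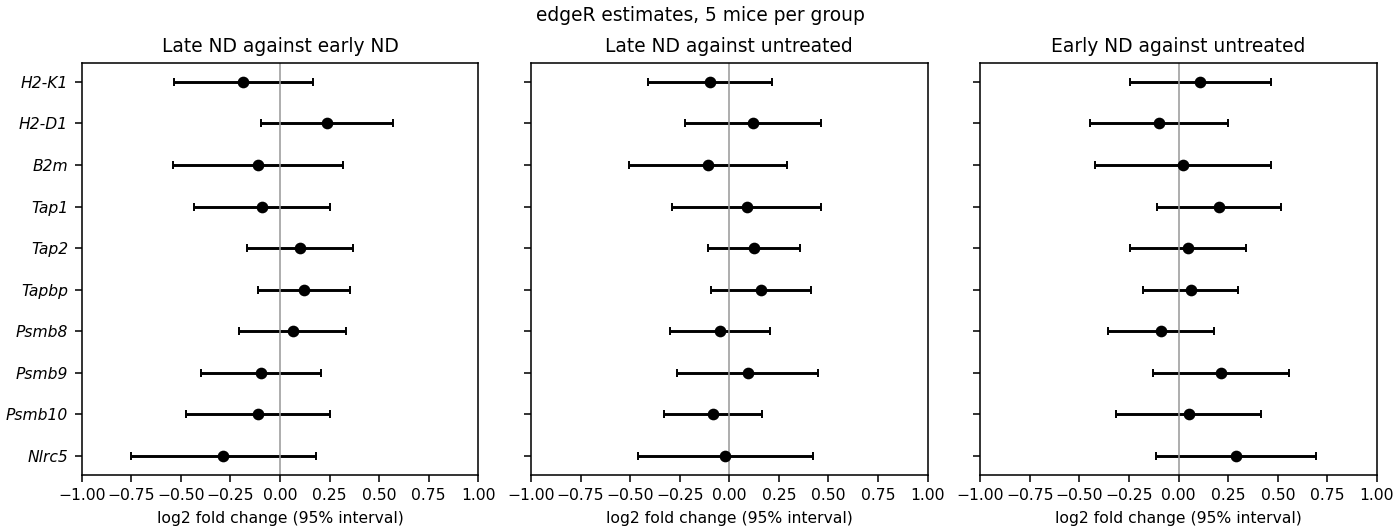
Log2 fold changes (x axis) of the 10 members in 3 comparisons, with 95% intervals from edgeR. Every interval holds 0, and the points lie between -0.29 and 0.29.

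The classical heavy chains, which hold the peptide, had log2 fold changes of opposite sign in late against early, neither of which passed the test. H2-K1 measured 780.3, 845, 789, 826 and 685 CPM in untreated replicates 1 to 5, 882, 978, 673, 974 and 738 in early and 819.6, 793, 736, 662 and 643 in late mice. H2-D1 measured 1167, 1292, 1052, 1322 and 1076 CPM in untreated, 1171, 1025, 1077, 1103 and 1155 in early and 1272, 1104, 1373, 1480.1 and 1185 in late mice. For H2-K1, 3 early mice lay above every late mouse and the other early mice fell among the late values; for H2-D1, 4 of 5 late mice lay above every early mouse. Means were 785 ± 62.1, 849 ± 138 and 731 ± 77.7 CPM (SD, n = 5) for H2-K1 in untreated, early and late mice, and 1182 ± 123, 1106 ± 59.1 and 1283 ± 149 for H2-D1. By edgeR, late against early, the log2 fold change was -0.18 (SE 0.16, adjusted p = 0.535) for H2-K1 and 0.24 (SE 0.15, adjusted p = 0.384) for H2-D1.

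The ratio of the 2 heavy chains within a library needs no scaling between libraries. It was chosen after the values were seen, so it is described without a test. Per exon length, the log2 ratio of H2-D1 to H2-K1 was 0.67, 0.70, 0.51, 0.77 and 0.74 in untreated, 0.50, 0.16, 0.77, 0.27 and 0.74 in early and 0.72, 0.57, 0.99, 1.25 and 0.97 in late mice. By this measure H2-D1 was the higher in all 15 libraries, from 1.12-fold in early replicate 2 to 2.38-fold in late replicate 4. The lengths used were 2992 bases for H2-D1 and 3185 for H2-K1, over all annotated exons. A single reference transcript of each is 2117 and 1619 bases long. The fold sizes, and which gene is higher where the ratio is lowest, depend on the length chosen. Differences between libraries do not. The late mean exceeded the early mean by 0.41 (log2), 3 of 5 late mice lay above every early mouse, and the difference was 0.50 without the 18S-poor libraries. Neutrophil marker sums were 5904 to 15762 CPM in late and 2506 to 7695 CPM in early mice. By edgeR 8 of 11 neutrophil markers were higher at an unadjusted p of 0.05 (14.4% of all genes) and 1, Mmp8, was called (2.5%). T cell marker sums were 288 to 346 and 240.0 to 478 CPM. The part of these cells in the ratio was not tested.

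B2m, the light chain shared by all class I molecules, measured 1128, 1649, 1279.8, 1453 and 1148 CPM in untreated, 1523, 1037, 1078, 1575 and 1577 in early and 1223, 1112, 1592, 1121 and 1124 in late mice. Early mice fell into a high set of 3 and a low set of 2, and late replicate 3 stood above the other late mice. Means were 1332 ± 219.8, 1358 ± 275 and 1234 ± 205 CPM (SD, n = 5), and the log2 fold change of late against early was -0.11 (SE 0.20, adjusted p = 0.785 by edgeR).

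Nlrc5, the transactivator, had the widest spread between mice of the 10 members in late mice, with a coefficient of variation of 31.4%. It measured 67.5, 80.0, 81.4, 95.3 and 56.3 CPM in untreated, 94.0, 104, 63.1, 126 and 81.4 in early and 115, 77.5, 65.0, 63.2 and 54.8 in late mice. Late replicate 1 stood above the other late mice, and early replicate 3 lay at their level. Means were 76.1 ± 14.8, 93.7 ± 23.7 and 75.0 ± 23.5 CPM, with a log2 fold change of -0.29 (SE 0.22, adjusted p = 0.463) for late against early and 0.29 (SE 0.19, adjusted p = 0.938) for early against untreated, both by edgeR.

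Among the transport and loading genes, Tap1, a chain of the transporter, measured 104, 104, 98.1, 124 and 75.5 CPM in untreated, 121, 138, 98.9, 117 and 108 in early and 142, 114, 108, 90.4 and 80.8 in late mice. Late replicate 1 was the highest and untreated replicate 5 the lowest of the 15. Tap2, the partner chain, ran from 48.2 to 62.9 CPM in untreated, 47.4 to 70.9 in early and 55.9 to 66.4 in late mice. Tapbp ran from 95.1 to 121 CPM, 102.8 to 117 and 100.6 to 135. By edgeR, late against early, the log2 fold changes were -0.09 (SE 0.16) for Tap1, 0.10 (SE 0.12) for Tap2 and 0.12 (SE 0.11) for Tapbp, and for Tapbp the interval was 0.926-fold to 1.28-fold. The other strand of Tapbp exons is annotated for Gm19412 and Gm64688 together over 33.02% of their bases, and Zbtb22 covers 20.93% of them on the same strand. Gm64688 is not among the genes counted here. The other strand of Tap2 and Psmb8 exons is annotated for Gm20496 (at Tap2 together with Gm15821) over 14.65% and 14.59%.

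The immunoproteasome subunits overlapped between groups. Psmb8 (β5i) measured 80.8, 90.3, 88.0, 87.7 and 71.9 CPM in untreated, 89.9, 89.1, 65.1, 74.3 and 75.7 in early and 82.7, 86.0, 90.1, 79.5 and 65.9 in late mice. Psmb9 (β1i) ran from 36.6 to 64.2 CPM in untreated, 45.0 to 68.2 in early and 38.5 to 57.4 in late mice, and Psmb10 (β2i) from 29.5 to 39.0, 22.6 to 49.4 and 26.0 to 35.2. The ranges overlap throughout, and early replicates 3 and 4 hold the lowest and the highest Psmb10 value of the 15 libraries. By edgeR, late against early, the log2 fold changes were 0.06 (SE 0.12) for Psmb8, -0.10 (SE 0.14) for Psmb9 and -0.11 (SE 0.17) for Psmb10, with adjusted p of 0.805, 0.730 and 0.745.

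Each inducible subunit was set against the constitutive subunit it replaces in the particle. The log2 ratio per exon length of Psmb8 to Psmb5 was 1.81 ± 0.54 in untreated, 1.76 ± 0.49 in early and 1.80 ± 0.53 in late mice (SD, n = 5). That of Psmb9 to Psmb6 was 0.36 ± 0.55, 0.55 ± 0.18 and 0.46 ± 0.27, and that of Psmb10 to Psmb7 was 2.24 ± 0.50, 2.42 ± 0.55 and 2.08 ± 0.24. Per exon length, inducible transcripts exceeded constitutive ones in all groups by the mean, and in every library for Psmb8 and Psmb10. For Psmb9, untreated replicate 5 lay below (-0.51) and late replicate 5 near equality (0.01). These levels depend on the exon lengths, which were 1732 bases for Psmb10 and 6025 for Psmb7. As plain counts Psmb10 fell below Psmb7 in untreated replicate 5 (183 against 234), early replicate 3 (165 against 197) and late replicate 5 (411 against 452). The other strand of Psmb7 exons is annotated for Nek6 over 46.76% of their bases. The groups overlapped for each of the 3 ratios. In the two-sided exact permutation test the 9 comparisons gave p between 0.262 and 0.984, with 0.984 after Benjamini-Hochberg adjustment for each, where the smallest p of 5 mice against 5 is 0.00794. Replicate 5 held the lowest log2 ratio of Psmb8 to Psmb5 in untreated (1.00), early (1.03) and late mice (1.04). For Psmb9 to Psmb6 and Psmb10 to Psmb7 this held in untreated and late but not in early mice. The permutation test takes no account of replicate numbers. Psmb5 was counted 30 to 267 times per library, which limits its ratio.

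**Figure D3:**
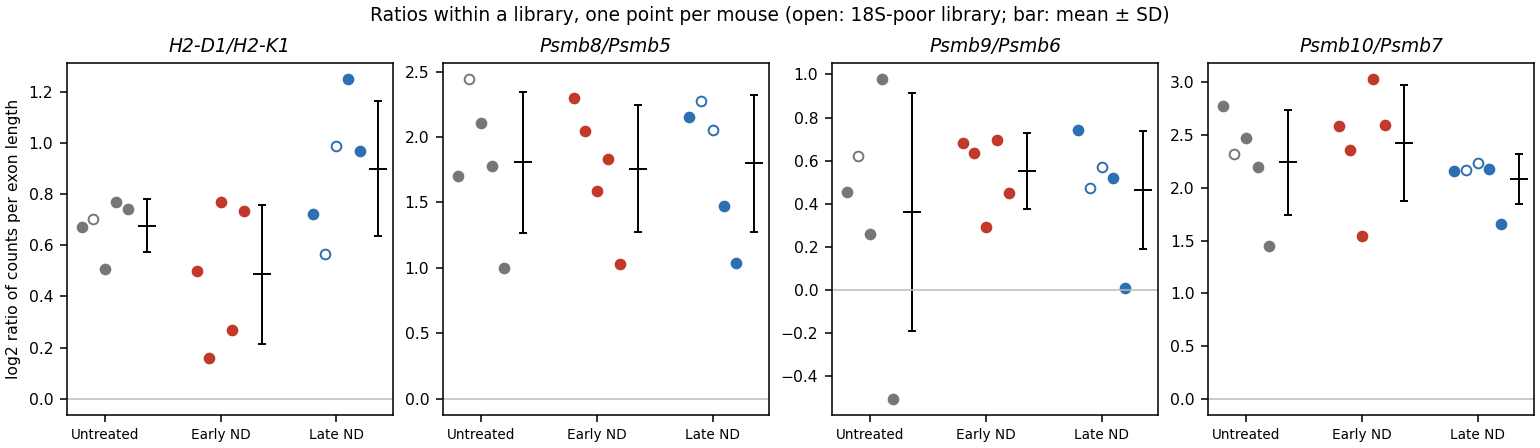
Log2 ratios of counts per exon length (y axis) within each library by group (x axis), 1 point per mouse, open points being 18S-poor libraries and bars the mean ± SD. The H2-D1/H2-K1 means are 0.68, 0.49 and 0.90 in untreated, early and late mice, and the 3 proteasome ratios overlap between groups.

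Between genes, levels can be compared only per exon length. B2m had the highest level, with a mean of 621 CPM per kilobase over the 15 libraries, followed by H2-D1 with 398 and H2-K1 with 247, each above the next in 15 of 15 libraries. The other members lay at 25.2 (Tapbp), 23.8 (Psmb8), 19.0 (Psmb10), 18.01 (Tap1), 13.6 (Psmb9), 12.6 (Tap2) and 9.61 (Nlrc5). Of these neighbours, Tapbp exceeded Psmb8 in 9 libraries, Psmb10 exceeded Tap1 in 8, and Psmb9 exceeded Tap2 in 10, so the order within these pairs is not set beyond the spread, while Tap1 exceeded Psmb9 in 15. Exon length counts all annotated exons, so a gene with long rare transcripts is placed too low. The 15 of 15 for H2-D1 above H2-K1 depends on these lengths.

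The members varied together from mouse to mouse in part. With the group mean removed, log2 CPM of the 45 pairs of members correlated between -0.06 and 0.89 over the 15 libraries (Pearson's r), with a median of 0.43, and 21 pairs were above 0.5. H2-K1 went with Tap2 (r = 0.89), Nlrc5 (0.88) and Tap1 (0.81), and Tap1 with Nlrc5 (0.85). H2-D1 stood outside this set, with r = -0.01 to H2-K1 and 0.10 to Nlrc5, and went with B2m (0.57) and Tapbp (0.52). These values describe 15 libraries that share depth and scaling, and in the 12 libraries rich in 18S the median was 0.56, with 0.04 between H2-K1 and H2-D1.

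Set against the mean of marker and pathway lists, the members differed in the list they followed most closely, and some lists were shared. H2-K1 went with T cell (r = 0.85), B cell (0.64) and MHC class II genes (0.74) and against neutrophil genes (-0.43), whereas H2-D1 went with neutrophil genes (0.66) and platelet genes (0.56) and had r = 0.07 to T cell genes and -0.44 to B cell genes. Nlrc5 followed the interferon-γ inducible GTPases (0.91), which defend cells against vacuolar pathogens, as did Psmb9 (0.82) and Tap1 (0.79). H2-K1 also went with the GTPases (0.65) and NK cell genes (0.60). Nlrc5 also went with type I interferon-stimulated genes (0.76) and T cell genes (0.72), and Tap1 with MHC class II genes (0.64) and T cell genes (0.56). Psmb8 was closest to NK cell genes (0.78) and Psmb10 to T cell genes (0.76) and hemoglobin (0.69). Tapbp went with type I interferon-stimulated genes (0.68), neutrophil genes (0.62), the GTPases (0.61) and erythroid genes (0.60). Without the 18S-poor libraries the values were 0.85 for H2-K1 with T cell genes, 0.60 for H2-D1 with neutrophil genes and 0.92 for Nlrc5 with the GTPases.

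**Figure D4:**
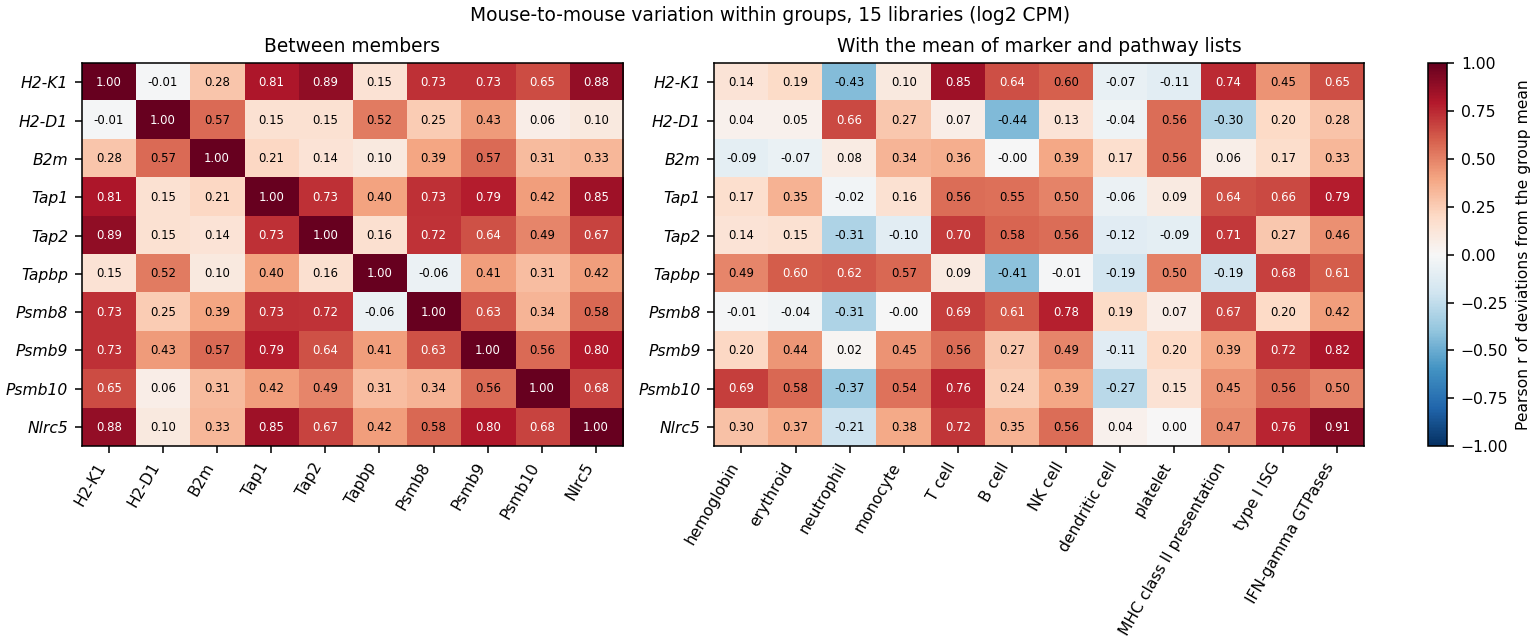
Pearson's r over 15 libraries, after removal of group means, between members (left) and between members (rows) and the mean of marker and pathway lists (right); color runs from -1 (blue) to 1 (red). H2-D1 has pale cells against most members, and Nlrc5, Psmb9 and Tap1 have their darkest list cell at the GTPases (0.91, 0.82 and 0.79).

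Among 4842 other genes with a mean of at least 20 CPM, those most like Tap1 were Ly6a (r = 0.95), an interferon-inducible surface protein, Uba7 (0.92), the activating enzyme for ISG15, the antiviral deaminase Apobec3 (0.91), Helz2 (0.88) and Gbp4 (0.87). Those most like H2-K1 were Gm11131 (0.97), Il27ra (0.95), a cytokine receptor chain of lymphocytes, Gm20496 (0.95), the nonclassical class I gene H2-Q7 (0.94) and Gimap4 (0.94), a lymphocyte GTPase. Those most like Psmb8 were Nkg7 (0.88), a granule protein of cytotoxic cells, Ccm2 (0.87), 4930523C07Rik (0.84), Acin1 (0.84) and Gm20496 (0.84). Gm20496 is annotated opposite to Psmb8 and Tap2 exons and H2-Q7 shares sequence with the heavy chains, and how far shared reads enter these values was not tested.

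Other genes of the pathway were taken from lists and tested in the same fits. The constitutive catalytic subunits had 0 of 3 called in late against early (largest Psmb7, log2 fold change 0.24, adjusted p = 0.268 by edgeR), the other subunits of the 20S core 0 of 11 (largest Psma1, 0.34, adjusted p = 0.199) and the ER loading and trimming genes 0 of 5 (largest Pdia3, 0.25, adjusted p = 0.289). Of these, 1 gene (Psma1) was under an unadjusted p of 0.05, and DESeq2 called 0. Of the PA28 activators, which open the 20S core, Psme1 (-0.28) and Psme2 (-0.12), the interferon-inducible pair, were not called. Psme3, the nuclear PA28γ, fell.

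Psme3 measured 861, 221, 694, 469.8 and 236 CPM in untreated, 219, 520.1, 339.8, 805 and 614 in early and 177, 109, 101, 167 and 97.5 in late mice. Every late mouse lay below every early and untreated mouse. Of all genes 2.93% were lower without overlap in late against early and 2.98% in late against untreated mice. By edgeR its log2 fold change was -1.91 (SE 0.32, adjusted p = 0.0126) for late against early and -1.92 (SE 0.37, adjusted p = 0.0242) for late against untreated. Without the 18S-poor libraries the first was -1.76 with an adjusted p of 0.0561 and the second -1.96 with 0.124, in fits that called 0 of all genes lower. With each mouse left out in turn the first was called in 10 of 10 fits. The second was called in 4 of 10 (not without any of the late mice or untreated replicate 3), between -2.11 and -1.63. The fits that did not call it called 0 of all genes lower. Erythroid markers moved the same way, 7 of 7 called lower in late against early mice (2.48% of all genes), with summed levels of 2188 to 4949 CPM against 6872 to 32595. Hemoglobin share differs between late and other mice. With it as a covariate in edgeR the log2 fold changes of Psme3 were -0.19 (adjusted p = 0.897) and -0.10 (adjusted p = 0.991). With this covariate 0 of all genes were called in either comparison. Scaled by library totals the log2 fold changes of Psme3 were -0.94 (adjusted p = 0.00428) and -0.76 (adjusted p = 0.0565). The part of red cells in these values was not tested.

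Nonclassical and class I-like genes had 0 of 11 tested called in late against early, with 9 of 11 below 0 and a median of -0.28 against 0.01 over all genes. At an unadjusted p of 0.05, 1 of them was higher (H2-Q10) and 1 lower (Cd1d1, a presenter of lipids), and DESeq2 called H2-Q10 (it called 5.78% of all genes higher and 5.03% lower). The largest absolute value was that of H2-Q10, a secreted class I molecule, at 0.82 (SE 0.25, adjusted p = 0.0720 by edgeR). Among 13 regulators of class I genes, 1 was called higher by edgeR (2.5% of all genes) and 2 by DESeq2 (5.78% of all genes). The gene called by edgeR was Nfya, a subunit of the factor that binds the CCAAT box, with a log2 fold change of 0.38 (SE 0.10, adjusted p = 0.0466). Nfya measured 34.4, 35.1, 31.3, 35.7 and 38.6 CPM in early and 40.6, 44.5, 48.9, 42.8 and 46.7 in late mice. These do not overlap, where 2.98% of all genes were higher without overlap. Of 6 tested genes on the list of class I receptors, 2 were called higher in late mice (2.5% of all genes). They were Pirb, an inhibitory receptor of myeloid cells that binds class I molecules (0.89, SE 0.24, adjusted p = 0.0498), and Lilrb4a, an inhibitory receptor of related structure that is not an established class I receptor in mice (0.97, SE 0.24, adjusted p = 0.0392), while the coreceptor chains Cd8a (-0.23) and Cd8b1 (-0.26) were not called. Monocyte marker sums were 685 to 1008 CPM in late and 367 to 846 CPM in early mice, and their part in these values, as that of the neutrophil markers, was not tested. Without the 18S-poor libraries none of Nfya, Lilrb4a and Pirb was called (adjusted p 0.147, 0.0746 and 0.0819), nor was any with hemoglobin share as a covariate (0.34, 1.04 and 0.85 on the log2 scale, adjusted p 0.674, 0.610 and 0.639). Of all genes, the first of these fits called 4 higher and the second 0. Nfya was also not called with the replicate block, DESeq2 size factors in edgeR or hemoglobin genes left out (adjusted p 0.0687, 0.0604 and 0.0559), and Pirb was not called with those size factors or without hemoglobin genes (0.0586 and 0.0531).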

How the data were processed

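Total RNA from the blood of 15 mice had been sequenced in pairs of 150-base reads. The authors aligned reads with STAR 2.7.9 to GRCm39, sorted with SAMtools 1.7 and deposited whole-number counts per Ensembl gene from HTSeq 0.13.5 (the rows that name no gene, left out here, held 75.6% to 88.1% of a library's entries, mostly reads with several alignments); the processing notes also list mm10, and annotation release and strand setting are not given in the sources used here. Of 55416 identifiers 54749 were matched to symbols (GENCODE vM39, GRCm39). Groups came from the sample titles, and mice are the replicates. The deposited counts were TMM-scaled, and groups were compared pairwise in edgeR 4.0.16 (R 4.3.3; filterByExpr, quasi-likelihood test, Benjamini-Hochberg over all genes tested, threshold 0.05). edgeR was tested on simulated counts. Correlations used log2 CPM with a prior count of 2, and ratios added 0.5 counts. Tested alternatives were library totals, RLE factors, DESeq2 1.42.0, other filters, 1 fit of all libraries, a replicate block, hemoglobin genes left out, hemoglobin share as a covariate, 18S-rich libraries only and each mouse left out. Effective library sizes after scaling ran from 2487661 to 24952161, and each member was counted at least 97 times in every library. Counting precision is lowest in untreated replicate 1. Named genes are the 10 members, the list genes called in late against early with the largest of each list, and the 5 genes most like Tap1, H2-K1 and Psmb8. Members and lists were chosen with earlier results of these data known, and the correlations and the H2-D1/H2-K1 ratio without the 18S-poor libraries were added after seeing the data. A gene that the naming rule takes is not reported here.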

Additional observations from a re-analysis of the deposited data

Results flagged for a closer look

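Among 42 sets of 5 values (each member's CPM and each ratio in each group), 2 held a mouse far from the other mice of its group by Dixon's test at a critical value of 0.71; chance flags about 1 in 20 groups. B2m in late replicate 3, an 18S-poor library, was 1592 CPM, where the other 4 late mice lay between 1112 and 1223, a gap of 0.770 of the group's range. The log2 ratio of Psmb10 to Psmb7 in late replicate 5 was 1.66, where the other 4 lay between 2.16 and 2.24, a gap of 0.870 of the range.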

How the results depend on the processing

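Of 300 member values recomputed under the other settings that left out no single mouse, 276 kept their direction and 24 turned, and of 300 with 1 mouse left out 16 turned; apart from library totals, no setting called a member. With library totals 9 members were called higher in late against early and 9 in late against untreated (67% and 55.2% of all genes), with member medians of 0.79 and 0.93, while the median of all genes moved to 0.86 and 0.91 (log2). The turned values were then H2-K1 0.68, B2m 0.77, Tap1 0.75, Psmb9 0.79, Psmb10 0.79 and Nlrc5 0.60 in late against early, H2-K1 0.81, B2m 0.75, Psmb8 0.86, Psmb10 0.86 and Nlrc5 0.88 in late against untreated, B2m -0.016 in early against untreated, and H2-Aa 0.52 and Ifit2 0.014 among list genes. With hemoglobin share as a covariate, which stands apart between late and other mice, the median in late against early was 0.26, and H2-K1 0.044, B2m 0.014, Tap1 0.10, Psmb9 0.32, Psmb10 0.61 and Nlrc5 0.44, Iigp1 0.20 and Isg15 0.49 and, against untreated, Psmb10 0.19 and Nlrc5 0.17 turned. Without low-count filtering Psmb8 0.0065 and Nlrc5 0.032 turned in late against untreated. In 18S-rich libraries Psmb8 turned to -0.055 in late against early, Nlrc5 to 0.024 in late against untreated, and the log2 ratio of Psmb8 to Psmb5 to -0.20 in late against early and 0.11 in early against untreated. The cause was not tested. Ranges with 1 mouse left out were, as log2 fold changes or ratios in late against early, Psmb8 -0.0079 to 0.11, Psmb10 -0.23 to 0.031, Psmb8/Psmb5 -0.14 to 0.23, Psmb9/Psmb6 -0.16 to 0.027, in late against untreated Tap1 -0.034 to 0.18, Nlrc5 -0.22 to 0.082, Psmb8/Psmb5 -0.21 to 0.18, Psmb9/Psmb6 -0.12 to 0.25, and in early against untreated B2m -0.039 to 0.12, Tap2 -0.030 to 0.12, Psmb10 -0.10 to 0.17, Psmb8/Psmb5 -0.25 to 0.13, Psmb9/Psmb6 -0.029 to 0.34, Psmb10/Psmb7 -0.017 to 0.40. The check did not establish that replicate numbers pair the mice, since not every same-number correlation passed 0.1 in any comparison: same-number deviations correlated between -0.18 and 0.46 in late against early, between 0.03 and 0.58 in late against untreated (4 of 5 over 0.1, and 3 of 5 closest to their own number) and between -0.24 and 0.08 in early against untreated. With the replicate block 0 members were called in any comparison, and 368 genes were higher and 305 lower in late against early, 230.0 and 377 in late against untreated (134 and 272 without it); it changed no call of a member, and Nfya and Isg15 lost theirs in late against early. All-gene counts moved by over 1.5 times in other fits too: DESeq2 called 769 higher and 670.0 lower in late against early, and 18S-rich libraries 4 and 0. With 1 mouse left out the counts ran from 36 to 1057 higher and 106 to 553 lower in late against early. In late against untreated the counts then ran from 0 to 184 higher and 0 to 409 lower. With hemoglobin share as a covariate 0 genes were called in either comparison. Depth limits Iigp1, Tgtp1, Cd1d1 and Psmb5, with lowest counts in a library of 2, 9, 20 and 30, and changes smaller than the 95% intervals given were not detectable with 5 mice a group.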

Other observations

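Lists next to the class I pathway gave these values in late against early mice by edgeR. Of 7 MHC class II presentation genes, which serve CD4 T cells, 0 were called (0 also at an unadjusted p of 0.05 and by DESeq2) and 6 were below 0 (median -0.16 on the log2 scale), the largest value being that of H2-Aa (-0.35, SE 0.24, adjusted p = 0.414). Of 15 type I interferon-stimulated genes tested, 3 fell (2.48% of all genes were called lower), the ubiquitin-like modifier Isg15 (-2.38, SE 0.53, adjusted p = 0.0285), the antiviral enzyme Rsad2 (-2.61, SE 0.46, adjusted p = 0.0130) and Ifit2 (-0.89, SE 0.20, adjusted p = 0.0292). Of 10 interferon-γ inducible GTPases 1 fell, Tgtp1 (-1.07, SE 0.24, adjusted p = 0.0293), whose groups did not overlap (2.93% of all genes were lower without overlap). All 10 GTPases were below 0, with a median of -0.59 against -0.09 for the 10 class I members, and the largest absolute value was that of Iigp1 (-1.08, adjusted p = 0.0817). DESeq2 called 5 GTPases and 4 of the interferon-stimulated genes lower (5.03% of all genes), and with the replicate block Isg15 was not called by edgeR (adjusted p = 0.0637). With each of the 10 mice left out in turn, Psme3 and Rsad2 were called in 10 of 10 fits, Isg15 and Ifit2 in 6 (not without early replicate 4 or late replicates 3, 4 or 5), Tgtp1 in 5 (not without early replicates 2 or 4 or late replicates 3, 4 or 5) and Lilrb4a in 4 (not without early replicates 1, 2 or 4 or late replicates 1, 3 or 4). Pirb was called in 2 of these fits (without early replicate 3 or late replicate 2) and Nfya in 1 (without early replicate 5). Without the 18S-poor libraries the adjusted p was 0.0602 for Rsad2, 0.0928 for Isg15, 0.0839 for Ifit2 and 0.0714 for Tgtp1. With hemoglobin share as a covariate none of the 4 was called, at -0.33 for Rsad2, 0.49 for Isg15, -0.31 for Ifit2 and -0.44 for Tgtp1 (adjusted p 0.902, 0.817, 0.826 and 0.799). With this covariate, as without the 18S-poor libraries, 0 of all genes were called lower. With library totals Ifit2 (0.014) and Tgtp1 (-0.21) were not called.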
